A study of Mus musculus with 12 samples.

Results

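The 10 genes described here (Ptprc, Coro1a, Laptm5, Cd52, Lyz2, Skap2, Ccr2, Ly6c2, Plac8 and Cd3e) are best known from white blood cells that enter an inflamed tissue. They were taken by gene symbol from a list that was drawn up with earlier results of these data known, and all 10 were found among the 25124 genes of both deposited expression tables. Polyadenylated RNA was sequenced from whole retinas of wild-type C57BL/6J mice, in 12 libraries that form 6 groups of 2. In the single-elevation experiment, intraocular pressure (IOP) was raised in 1 eye to 30 mmHg for 1 h in mice aged 3 months (3mo IOP) or 18 months (18mo IOP), and the untreated contralateral eyes gave the 3mo control and 18mo control groups. In the repeated experiment the same elevation was given 4 times, biweekly, to mice that were 3 months old at the start (4xIOP), again with the contralateral eyes as controls (4xIOP control). All retinas were taken on day 2 after the only or last elevation, so every control eye came from an animal whose other eye had been treated. The study calls its libraries biological replicates, and its methods as read here describe these libraries as whole retinas and mention no perfusion of the vessels.

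Leukocytes reach the retina from the blood, since the healthy retina holds few immune cells other than microglia, its resident macrophages, and some perivascular macrophages. After injury, endothelium and glia release chemokines such as Ccl2, the ligand of the receptor Ccr2 that classical monocytes carry, and adhesion molecules such as Icam1 and Vcam1 hold the passing cells to the vessel wall. Several of the 10 genes are not particular to incoming cells: Ptprc (the phosphatase CD45), Coro1a (an actin regulator), Laptm5 (a lysosomal membrane protein), Cd52 and Lyz2 (lysozyme of myeloid cells) can also be made by microglia or activated macrophages, and Coro1a and Skap2, an adaptor protein that acts in integrin signaling, are made outside the blood lineage too. Ccr2, Ly6c2 and Plac8 mark monocytes more narrowly, although Plac8 is found in other tissues, and Cd3e is a chain of the T-cell receptor complex. The name of the group therefore says where these genes are known from, and not that an origin outside the retina was measured. In bulk RNA, fewer cells of a type and less RNA per cell cannot be told apart, and neither can more cells and more RNA.

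The regions just upstream of the genes are shown because 9 of the 10 have an entry in the RefSeq promoter table (assembly GRCm38.p6) that starts where the deposited transcript starts. Each window held the 250 bases before the transcript start and was searched on both strands for GAGGAAG, a core letter run of the myeloid factor PU.1, and TGTGGT, that of RUNX factors, which do not overlap each other in these windows. GAGGAAG was present in 2 of the 9 windows (Laptm5 and Ly6c2), against 10.6% of all 32851 windows of the table. TGTGGT was present in 3 of the 9 (Lyz2, Ly6c2 and Plac8), against 14.0%. The 4 windows with a match follow, written 5′ to 3′ on the strand of the gene in lower case, with the matches in capitals (CTTCCTC and ACCACA are the same letters read on the opposite strand). Laptm5 lies on the plus strand with its window at chr4:130913066-130913315, and the others lie on the minus strand, Lyz2 at chr10:117282273-117282522, Ly6c2 at chr15:75111938-75112187 and Plac8 at chr5:100572206-100572455.
Laptm5: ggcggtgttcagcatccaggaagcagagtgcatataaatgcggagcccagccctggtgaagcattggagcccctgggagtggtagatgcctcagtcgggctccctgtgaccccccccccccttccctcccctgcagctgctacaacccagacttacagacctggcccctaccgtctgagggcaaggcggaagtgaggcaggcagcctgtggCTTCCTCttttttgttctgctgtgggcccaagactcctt
Lyz2: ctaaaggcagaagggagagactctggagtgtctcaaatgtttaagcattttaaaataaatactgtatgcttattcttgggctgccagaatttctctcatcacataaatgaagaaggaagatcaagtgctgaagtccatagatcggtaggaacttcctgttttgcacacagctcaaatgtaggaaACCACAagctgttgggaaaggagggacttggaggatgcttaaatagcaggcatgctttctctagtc
Ly6c2: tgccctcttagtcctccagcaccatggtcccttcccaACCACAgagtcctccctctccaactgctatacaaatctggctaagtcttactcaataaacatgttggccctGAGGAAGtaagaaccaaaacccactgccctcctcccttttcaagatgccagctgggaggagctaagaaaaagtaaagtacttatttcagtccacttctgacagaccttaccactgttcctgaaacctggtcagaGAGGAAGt
Plac8: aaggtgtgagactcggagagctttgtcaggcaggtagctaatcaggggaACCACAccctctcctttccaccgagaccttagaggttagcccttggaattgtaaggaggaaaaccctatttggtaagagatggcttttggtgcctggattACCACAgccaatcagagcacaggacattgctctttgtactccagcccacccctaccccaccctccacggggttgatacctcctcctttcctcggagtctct
The match in Laptm5 began 39 bases before the transcript start and that in Lyz2 66 bases before it. Ly6c2 held GAGGAAG at 142 and again at 8 bases before the start and TGTGGT at 213, and Plac8 held TGTGGT at 201 and 101. No match was found in the windows of Ptprc, Coro1a, Skap2, Ccr2 and Cd3e. These are matches of letters and show no binding.

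The 10 loci lie apart from one another on 8 chromosomes of mm10, and no exon model listed for another gene overlaps them. Ptprc spans chr1:138062859-138175305 on the minus strand with a transcript of 5146 bases, the longest of the set, and Cd52 spans chr4:134093538-134095073 on the minus strand with the shortest, 499 bases. Laptm5 lies on the same chromosome at chr4:130913316-130936148 (plus strand, 2406 bases). The myeloid genes Lyz2 (chr10:117277541-117282272) and Skap2 (chr6:51859165-52012549) and the actin regulator Coro1a (chr7:126699774-126704816) are on the minus strand. Ccr2 is at chr9:124102183-124109140 on the plus strand, Cd3e on the same chromosome at chr9:44998743-45009611, Ly6c2 at chr15:75108161-75111937 and Plac8 at chr5:100553726-100572205, these 3 on the minus strand. Reads were counted by the authors over the exons of 1 transcript for each gene on the transcribed strand.

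Values are FPKM (fragment counts scaled to transcript length and to the tags of the library), as deposited, so levels of different genes are compared per length. The libraries held between 39766238 and 59455033 tags, of which 44.18% to 71.52% lay in exons. Whole reads could be recovered from the values, and 3 reads in a library were taken as the limit of measurement, which covers counting error only, as do all intervals given for reads. The 2 experiments were deposited as separate tables, so tests were run only within each. Differences were fitted with limma on log2(FPKM + 0.5) over all genes whose mean reached 0.5 FPKM. A gene was called where its Benjamini-Hochberg adjusted p was at most 0.05 and its log2 fold change at least 1 in either direction. The scale of a log2 fold change is that of log2(FPKM + 0.5), which understates changes of low genes. Retina identity was clear in every library, since none of the 16 markers of retinal neurons and Muller glia was at 0. The libraries differed in how short transcripts compared with long ones: median FPKM of protein-coding genes under 1000 bases, divided by that of genes of 4000 bases or more, was 4.70 in 3mo control replicate 2, between 1.20 and 1.36 in the 18-month libraries, and between 1.45 and 3.26 in the other libraries.

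**Figure D1:**
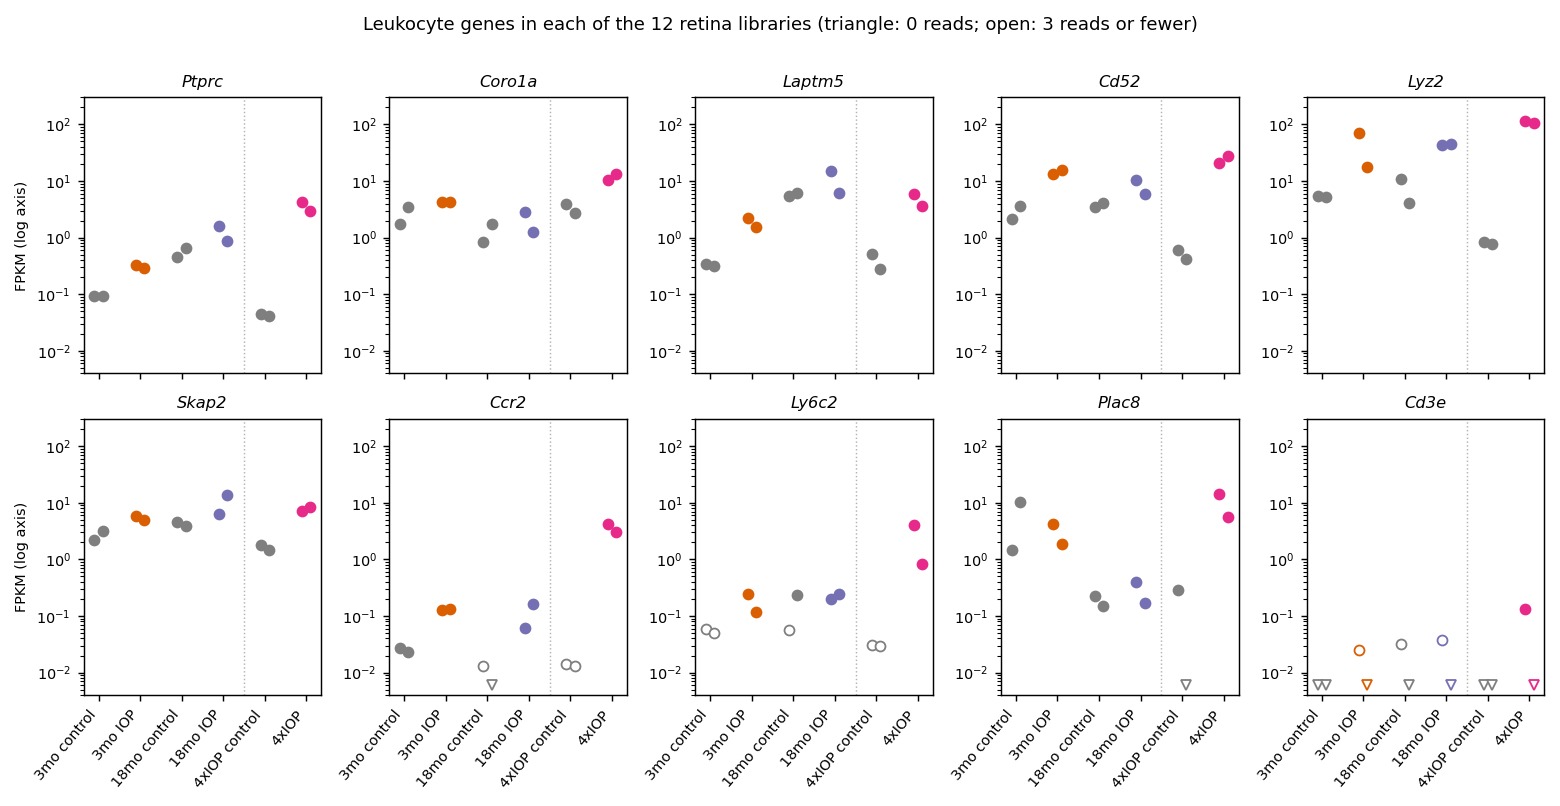
FPKM (log axis) of each of the 10 leukocyte genes in each library, with the single-elevation groups left of the dotted line and the repeated-elevation groups right of it. Grey points are control eyes, colored points are treated eyes, open points hold 3 reads or fewer and triangles 0 reads. Every gene but Cd3e lies higher in both 4xIOP libraries than in both of their controls.

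Repeated IOP elevation went with higher levels of 9 of the 10 leukocyte genes, most of which were under 1 FPKM in the control eyes. These 9 were called higher in 4xIOP retinas and none was called lower, where 5.45% of all 13718 tested genes were called higher and 0.693% lower. The remaining gene, Cd3e, was too low to test. Of the 9, Ptprc, Laptm5, Ccr2, Ly6c2 and Plac8 passed the filter on low values only through the 4xIOP libraries and so had to differ, which makes their calls a description. The other 4 (Coro1a, Cd52, Lyz2 and Skap2) had means of at least 0.5 FPKM in both groups and were called as well. Over every tested gene the median log2 fold change was 0.10 here.

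Among the genes carried by most leukocytes, Ptprc stood at 0.044 and 0.041 FPKM (9 and 9 reads) in the control eyes and at 4.34 and 2.97 FPKM (1254 and 645 reads) in the 4xIOP eyes. It encodes CD45, the surface phosphatase that marks nearly all nucleated blood cells, and its mean differed 85.9-fold (log2 fold change 2.92, SE 0.24, adjusted p = 5.13e-06, limma). Coro1a was already at 3.90 and 2.73 FPKM in the controls and at 10.2 and 13.6 FPKM after repeated elevation, the smallest step of the 9 on the log2 scale (1.70, SE 0.23, adjusted p = 0.00028). Laptm5, a lysosomal protein of blood cells, went from 0.512 and 0.275 FPKM to 5.82 and 3.68 FPKM (log2 fold change 2.54, SE 0.25, adjusted p = 1.83e-05). Cd52, a small glycosylated peptide anchored on lymphocytes and monocytes, was at 0.605 and 0.426 FPKM (12 and 9 reads) against 20.4 and 27.6 FPKM (572 and 582 reads). The Cd52 groups were far apart, with means 46.6-fold different (log2 fold change 4.58, SE 0.21, adjusted p = 6.69e-08).

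Lyz2, the lysozyme of monocytes, macrophages and granulocytes, showed the largest step of the 9 tested genes on the log2(FPKM + 0.5) scale, although not as a ratio, where Ccr2 was higher. It was at 0.837 and 0.764 FPKM in the control eyes and at 113 and 107 FPKM in the 4xIOP eyes, with a difference between the 2 treated libraries far smaller than that between the groups (137-fold in the means, log2 fold change 6.41, SE 0.22, adjusted p = 4.99e-09). Lyz2 and its near copy Lyz1 share 15.4% of the 50-base windows of the longest annotated Lyz2 transcript, so some of its reads could not be assigned uniquely, and Lyz1 itself was listed at 0 in both controls and at 1.68 and 0.752 FPKM after repeated elevation. Skap2, the integrin-signaling adaptor, was at 1.81 and 1.46 FPKM against 7.28 and 8.25 FPKM (4.75-fold, log2 fold change 1.96, SE 0.20, adjusted p = 2.35e-05).

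The 3 monocyte genes were close to absent in the control eyes. Ccr2, the receptor through which monocytes follow Ccl2, had 2 and 2 reads there and 842 and 459 reads in the 4xIOP eyes (0.014 and 0.013 against 4.18 and 3.03 FPKM), a ratio of reads per tag of 271 with a 95% exact interval of 106 to 997. The limma fit gave it a log2 fold change of 2.99 (SE 0.24, adjusted p = 3.63e-06). Ly6c2, a surface protein of classical monocytes, had 1 and 1 reads in the controls and 183 and 28 reads in the treated eyes, and the treated libraries differed from each other (4.00 and 0.814 FPKM). Its ratio of reads per tag was 88.0 (95% exact interval 24.1 to 731), and its log2 fold change of 2.20 (SE 0.43, adjusted p = 0.00505) was no longer called without the filter (adjusted p = 0.118), with median-of-ratios size factors (0.0877) or with the length trend removed (0.112). Plac8, a small cysteine-rich protein of myeloid cells, had 8 and 0 reads against 565 and 162 reads (0.289 and 0 against 14.5 and 5.51 FPKM; log2 fold change 3.92, SE 0.35, adjusted p = 9.68e-06). For Ccr2, Ly6c2 and Plac8 alike the higher value was in 4xIOP replicate 1. Ly6c2 shares 12.6% of its 50-base windows with the endothelial gene Ly6c1, which was at 4.89 and 4.57 FPKM in the controls and 7.67 and 9.91 FPKM after repeated elevation.

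T-cell transcripts were few and came mostly from 1 library. Cd3e had 0 reads in both control eyes, 11 reads (0.135 FPKM, 95% exact interval 0.0676 to 0.242) in 4xIOP replicate 1 and 0 reads in 4xIOP replicate 2, where 3 reads would have been 0.0491 FPKM. It was below the filter and not tested, and its 2 treated libraries disagreed. The other chains of the same receptor complex had the same layout: Cd3d had 11 and 2 reads and Cd3g 21 and 2 reads in the 4xIOP eyes, and neither had a read in the control eyes. Among 28 further T- and NK-cell genes, every gene had a read in 4xIOP replicate 1, whereas 4 were at 0 in replicate 2 and 20 and 17 were at 0 in the controls. Of the 28, 3 were high enough to test and none was called. Ccl5, a chemokine of activated T and NK cells, was at 5.42 and 0.270 FPKM in the treated eyes and 0.096 and 0 FPKM in the controls (log2 fold change 1.97, adjusted p = 0.0960, limma).

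**Figure D2:**
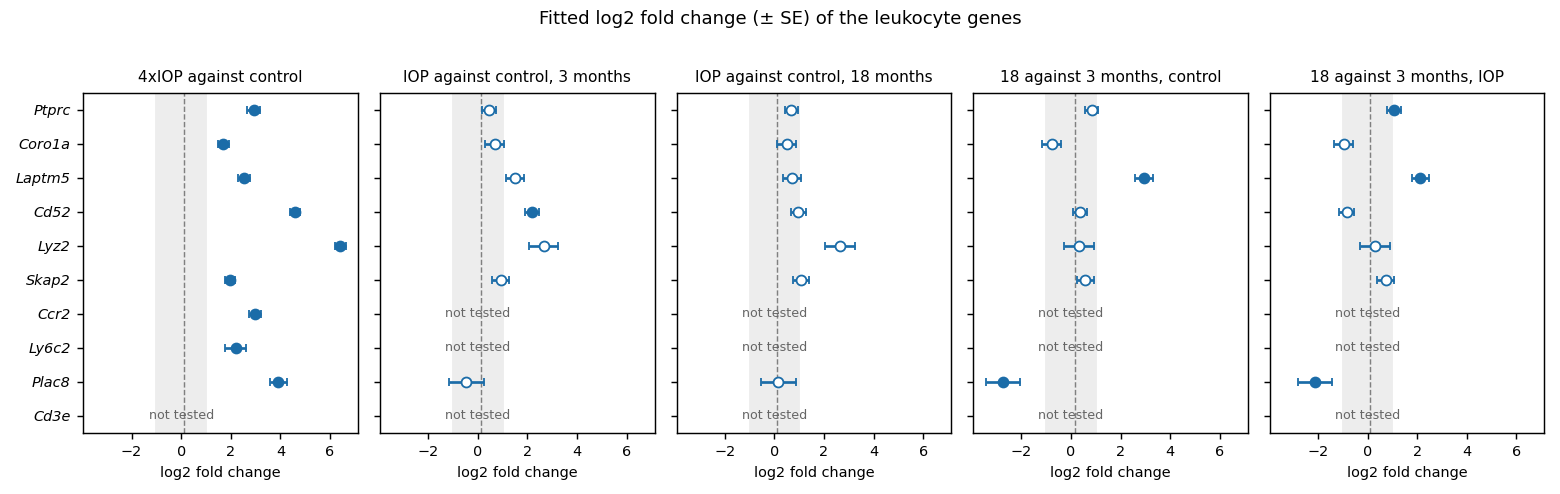
Log2 fold changes of log2(FPKM + 0.5) with standard errors from limma, 1 panel for each comparison. Filled points were called, the grey band spans changes under 1 in size and the dashed line is the median of all tested genes. The 9 tested genes lie between 1.70 and 6.41 after repeated elevation, while after a single elevation only Cd52 at 3 months is filled.

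Lists of genes for other cells were read beside these values to show which moved with the members, and some genes stand in more than 1 list (4 of the 15 microglia genes and 3 of the 30 monocyte and macrophage genes do). As with the members, most tested genes of the leukocyte lists passed the filter only through the 4xIOP libraries and so had to differ, so the counts over whole lists are a description. Of 28 further pan-leukocyte genes, 20 of 21 tested were called higher in 4xIOP eyes, but 17 of the 21 had a mean under 0.5 FPKM in the controls, and of the 4 at or above it in both groups 3 were called higher. Cd44, a hyaluronan receptor, went from 0.864 and 1.68 FPKM to 12.7 and 17.0 FPKM, and Arhgdib, a regulator of small GTPases, from 1.68 and 1.45 FPKM to 5.08 and 6.09 FPKM. Hcls1 was the only tested gene of that list not called, at 8.39 and 4.98 FPKM in the controls against 4.37 and 4.50 FPKM. Of 30 monocyte and macrophage genes, 27 of 28 tested were called higher, and of the 7 at or above 0.5 FPKM in both groups 6 were. The genes called included the signaling adaptors Tyrobp (2.31 and 1.80 against 30.9 and 38.1 FPKM) and Fcer1g (1.12 and 0.943 against 12.6 and 13.2 FPKM), and S100a4, a calcium-binding protein of motile cells (3.92 and 2.54 against 24.0 and 40.8 FPKM).

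Genes known from resident macrophages were also read, some of which blood monocytes share. Of 15 homeostatic microglia genes, 10 of 12 tested were called higher, 5 of them among the 6 at or above 0.5 FPKM in both groups, and the list's summed level was 43.4 and 38.8 FPKM in the controls against 106 and 140 FPKM in the 4xIOP eyes. Sparc (28.7 and 25.0 against 50.9 and 69.6 FPKM) and Olfml3 (2.66 and 2.74 against 6.10 and 9.84 FPKM) were among them. Without Sparc the list summed to 14.7 and 13.8 FPKM in the controls against 55.3 and 70.1 FPKM in the 4xIOP eyes. P2ry12, the purinergic receptor that marks resting microglia, named here after its values were seen, was at 0.534 and 0.541 FPKM against 0.869 and 1.22 FPKM and was not called (adjusted p = 0.274, limma). Border macrophage genes were called higher in 5 of 6 tested, all 5 under 0.5 FPKM in the controls, Pf4 among them (0.086 and 0.243 against 7.12 and 2.84 FPKM), while Lyve1 was not (2.68 and 1.71 against 1.97 and 2.86 FPKM). How much of each member's level came from microglia and how much from cells of the blood was not tested.

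Neutrophil genes were mixed. Of 19 genes, 7 were tested, 5 were called higher (S100a8, S100a9, Csf3r, Il1r2 and Lcn2) and Hdc was called lower, and 4 of the 7 passed the filter only through the 4xIOP libraries. S100a8, an abundant cytosolic protein of granulocytes, was at 0.130 and 0 FPKM in the controls and 20.2 and 26.5 FPKM in the 4xIOP eyes (log2 fold change 5.39, adjusted p = 1.52e-08, limma). Lcn2, which astrocytes and Muller cells also make under stress, reached 284 and 825 FPKM from 1.43 and 0.951 FPKM. Of the 19 genes, 6 were at 0 in each 4xIOP library, against 10 and 13 in the controls. Ly6g, Ngp and Mpo, named after their values were seen, were among the low genes. Ly6g was listed at 0.039 FPKM in 4xIOP replicate 1 and at 0 in replicate 2, and Ngp and Mpo were listed at 0 in both. Of 15 B- and plasma-cell genes only Jchain was high enough to test, and it was not called, since its log2 fold change of 0.76 missed the threshold (1.56 and 1.62 against 2.74 and 3.36 FPKM). Of 13 dendritic-cell genes, 5 were tested and Itgax, an integrin chain that activated microglia also carry, was called higher.

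Several genes that draw leukocytes in were also higher. Of 22 chemokine and adhesion genes, 10 of 17 tested were called higher in 4xIOP eyes and none lower, 2 of them among the 6 at or above 0.5 FPKM in both groups, and the summed level of the list was 22.2 and 19.8 FPKM against 73.6 and 71.2 FPKM. Ccl2 was at 0.188 and 0 FPKM in the controls and 3.33 and 5.23 FPKM in the treated eyes, Vcam1 at 2.07 and 2.43 against 10.6 and 12.5 FPKM and Cxcl16 at 2.52 and 2.73 against 8.98 and 11.7 FPKM. Cx3cl1, the neuronal ligand of the microglial receptor Cx3cr1, was at 10.6 and 9.25 against 11.2 and 11.3 FPKM and was not called.

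Signs of blood, and of tissue beside the retina, were set beside the members. The 8 red blood cell genes summed to 92.2 and 59.3 FPKM in the controls and 59.1 and 95.5 FPKM in the 4xIOP eyes, ranges that overlap, and none of 6 tested was called. Of platelet genes, Pf4 alone was called. Lens genes were called higher in 8 of 8 tested, 3 of which were at or above 0.5 FPKM in both groups, with a summed level of 14.8 and 10.7 FPKM in the controls and 76.4 and 159 FPKM in the treated eyes, Cryab among them (9.80 and 9.78 against 23.4 and 45.8 FPKM). Retinal pigment epithelium genes were called lower in 3 of 3 tested, 1 of which was at or above 0.5 FPKM in both groups, their sum being 26.9 and 36.4 FPKM against 2.79 and 6.04 FPKM. Endothelial genes were called higher only for Kdr and lower only for Slco1c1 among 9 tested. The 16 markers of retinal neurons and Muller glia summed to 10072 and 10532 FPKM in the controls and 4940 and 7288 FPKM in the treated eyes, and 1 of them, Arr3, was called lower. The part of these shifts in the members' values was not tested.

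**Figure D3:**
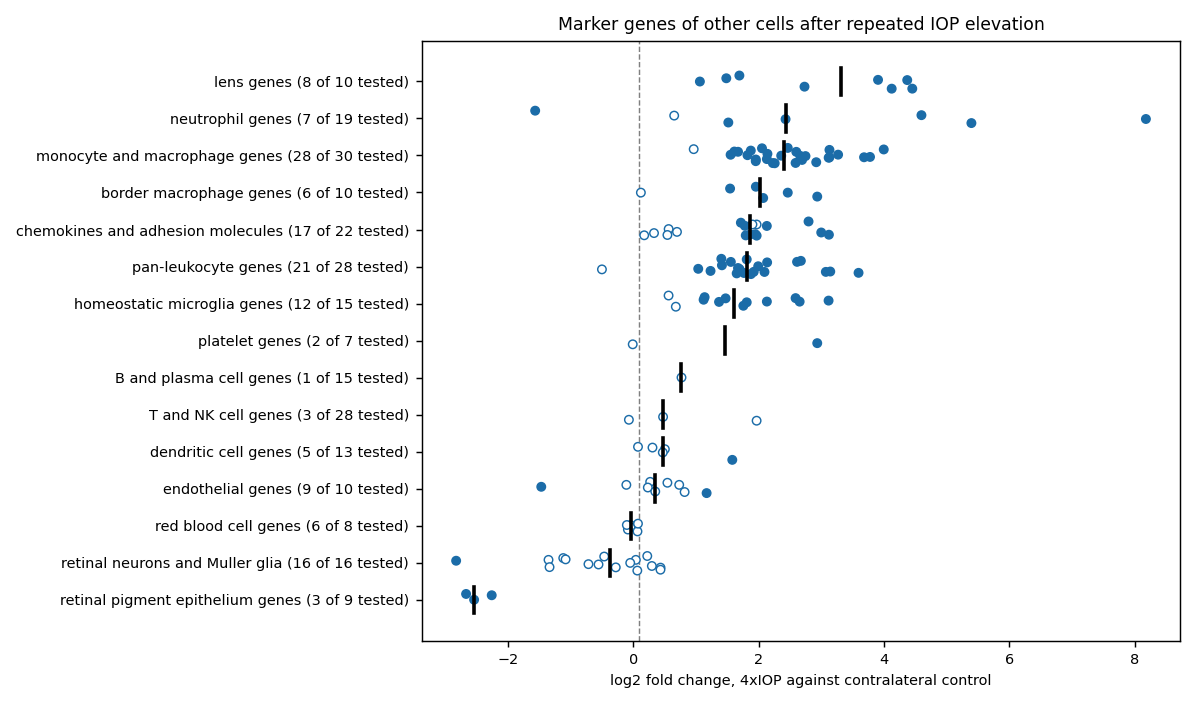
Log2 fold change between 4xIOP and contralateral control for every tested gene of the lists of marker genes (horizontal axis), ordered by the list's median (black bar). Filled points were called, the dashed line is the median of all tested genes, 0.10, and many list genes entered only through the group in which they are high. Monocyte, macrophage and pan-leukocyte genes other than Hcls1 lie to its right, and red blood cell genes lie around it.

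A single elevation at 3 months gave 1 call. Of the 7 members tested, Cd52 was called higher and none lower, against 0.568% of all 13731 genes called higher and 0.00728% lower. Cd52 was at 2.17 and 3.57 FPKM in the 3mo control and 13.5 and 15.6 FPKM in the 3mo IOP eyes (5.06-fold, log2 fold change 2.18, SE 0.30, adjusted p = 0.0322, limma). Its call was lost in 9 of the 21 alternatives, with adjusted p between 0.0136 and 0.228 over all of them, and leaving out 3mo control replicate 1, either 3mo IOP library or either 18mo control library, which shares the fit, ended it. In 6 of the 7 genes both treated libraries lay above both controls, as did 28.6% of all tested genes.

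Lyz2 was at 5.48 and 5.12 FPKM in the 3mo controls and at 71.4 and 18.0 FPKM after elevation, both treated libraries above both controls but far apart from each other. Its log2 fold change of 2.66 (SE 0.60) was not called (adjusted p = 0.129, limma). Laptm5 was at 0.340 and 0.313 FPKM against 2.18 and 1.54 FPKM (log2 fold change 1.50, SE 0.36, adjusted p = 0.161), and without either 18mo IOP library it was called (adjusted p = 0.0276 and 0.0268). Skap2 was at 2.18 and 3.15 against 5.84 and 5.05 FPKM, Coro1a at 1.73 and 3.49 against 4.29 and 4.21 FPKM and Ptprc at 0.094 and 0.094 against 0.326 and 0.289 FPKM. None of these 3 was called, although no treated value fell below a control value. Plac8 overlapped between the groups, at 1.49 and 10.4 FPKM in the controls and 4.28 and 1.90 FPKM after elevation. The library with 10.4 FPKM was the same 3mo control replicate 2 whose short transcripts were high. In that library Cd52, with a shorter transcript, was at 3.57 FPKM against 2.17 FPKM in replicate 1, and red blood cell genes summed to 418 against 28.8 FPKM. The part of these differences in the Plac8 value was not tested.

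The monocyte genes Ccr2 and Ly6c2 were low after a single elevation, below the filter in every treated library, and Ccr2 was above its limit of 3 reads in each. Ccr2 had 4 and 4 reads in the 3mo controls and 25 and 20 in the 3mo IOP eyes, a 5.24-fold difference of the means at 0.131 ± 0.0042 FPKM (SD, n = 2) in the treated eyes. In the 18mo controls it had 2 and 0 reads and in the 18mo IOP eyes 12 and 34 reads, a ratio of reads per tag of 18.2 with a 95% exact interval of 4.77 to 155. Ccr2 was below the filter and entered no main test, and without the filter neither difference was called by limma or by voom (adjusted p from 0.331 to 0.414 at 3 months and from 0.198 to 0.339 at 18 months). Ly6c2 had 2 and 2 reads against 11 and 4 reads at 3 months and 2 and 9 against 9 and 12 reads at 18 months, where the FPKM values overlapped. Cd3e had 3 reads at most in any single-elevation library. Set side by side with the separately deposited repeated experiment, mean Ccr2 was 0.131 FPKM at 3 months and 0.111 FPKM at 18 months after 1 elevation and 3.61 FPKM after 4. In the same order Laptm5 was at 1.86, 10.7 and 4.75 FPKM and Skap2 at 5.45, 10.1 and 7.76 FPKM. The other members had their highest treated mean after 4 elevations. FPKM was scaled to all tags, and the share of tags in exons differed, at 65.98% to 71.52% in the single experiment and 44.18% to 53.74% in the repeated one.

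A single elevation at 18 months gave no call among the 7 tested members, in either direction, where 0.117% of 13731 genes were called higher and 0.00728% lower. At an unadjusted p under 0.05 limma had 4 of the 7 (Ptprc, Cd52, Lyz2 and Skap2) and 9.45% of all tested genes, and voom on the recovered reads also called none. Both treated libraries lay above both controls for 5 of the 7, as for 36.5% of all tested genes. Lyz2 was at 10.7 and 4.13 FPKM in the 18mo controls and 43.0 and 45.9 FPKM in the 18mo IOP eyes (6.02-fold, log2 fold change 2.65, SE 0.60, adjusted p = 0.147). Laptm5 was at 5.54 and 6.13 against 15.2 and 6.19 FPKM, Ptprc at 0.461 and 0.664 against 1.62 and 0.856 FPKM and Cd52 at 3.43 and 4.11 against 10.4 and 5.90 FPKM. In these 3 genes 18mo IOP replicate 1 was the higher of the treated libraries. Skap2 was the other way around, at 6.21 FPKM in replicate 1 and 14.0 FPKM in replicate 2 against 4.52 and 3.86 FPKM in the controls, and it was called once replicate 1 was left out (adjusted p = 0.0415), a fit in which the lone treated library is assumed to vary like the other groups. Coro1a (0.845 and 1.73 against 2.85 and 1.26 FPKM) and Plac8 (0.229 and 0.153 against 0.392 and 0.169 FPKM) overlapped between the groups.

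Among other leukocyte and recruitment genes a single elevation gave few calls, although many of these genes lay higher in the treated eyes. At 3 months, Fcer1g (3.63 and 5.08 against 13.7 and 12.6 FPKM) and the inhibitory receptor gene Lilrb4a (0.259 and 0.113 against 2.41 and 1.73 FPKM) were called among 18 tested monocyte and macrophage genes, and Ccl2 (0.301 and 0.105 against 5.72 and 5.06 FPKM) and Cxcl12 (2.03 and 2.64 against 9.29 and 6.55 FPKM) among 18 chemokine and adhesion genes. At 18 months, Lilrb4a was called again (0.981 and 0.689 against 5.26 and 4.29 FPKM) and Cd44 among 17 pan-leukocyte genes (3.23 and 2.96 against 12.8 and 19.7 FPKM). These calls rest on the fit: no gene of the whole table was called higher at 3 months without 3mo control replicate 1 or without 3mo IOP replicate 1, and none at 18 months with a pseudocount of 0.1, median-of-ratios size factors, either replicate block, voom or the compared groups alone, or with any 1 control or 3mo IOP library left out. The median log2 fold change of the monocyte and macrophage list was 0.94 at both ages, against 0.13 and 0.09 over all tested genes, with 10 of its 18 genes at 3 months and 4 at 18 months under 0.5 FPKM in at least 1 of the groups compared. The recruitment list had medians of 1.19 and 0.97, with 14 and 12 of 18 genes higher in both treated libraries than in both controls, and it summed to 23.2 and 28.0 against 71.2 and 78.0 FPKM at 3 months and to 77.5 and 74.7 against 181 and 180 FPKM at 18 months. Microglia genes summed to 46.0 and 60.0 FPKM in the 3mo controls and 121 and 92.3 FPKM after elevation, and to 134 and 140 against 315 and 243 FPKM at 18 months, with none of 13 called at either age. Sparc carried much of these sums, and without it the 18-month values were 56.2 and 59.2 against 135 and 47.7 FPKM, which overlap. The list's median log2 fold change was 0.63 at 3 months and 0.24 at 18 months, and both treated libraries lay above both controls for 11 and 2 of the 13 genes.

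Red blood cell genes differed widely among the single-elevation libraries. They summed to 28.8 and 418 FPKM in the 3mo controls, 47.0 and 491 FPKM in the 3mo IOP eyes, 243 and 653 FPKM in the 18mo controls and 82.4 and 66.5 FPKM in the 18mo IOP eyes. At 18 months they were thus lower in both treated libraries, while the summed level of the 10 leukocyte genes was higher (25.8 and 21.0 against 79.9 and 74.7 FPKM, or 15.1 and 16.9 against 36.9 and 28.7 FPKM without Lyz2, the largest part of the treated sums). At 3 months the sum of the 10 genes was 13.6 and 26.2 FPKM against 102 and 46.9 FPKM, and the red blood cell sum was high in replicate 2 of both groups. Markers of tissue beside the retina differed too. Retinal pigment epithelium genes summed to 507 FPKM in 3mo IOP replicate 1, the library with the highest Lyz2 of the single-elevation experiment, and to 187 to 205 FPKM in the other 3-month libraries, and Mlana was called higher (11.4 and 4.57 against 124 and 69.0 FPKM). At 18 months all 7 tested lens genes lay higher in both IOP libraries than in both controls (median log2 fold change 1.00), with sums of 48.1 and 39.2 against 84.3 and 183 FPKM. The part of blood and of these tissues in the members' levels was not tested.

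**Figure D4:**
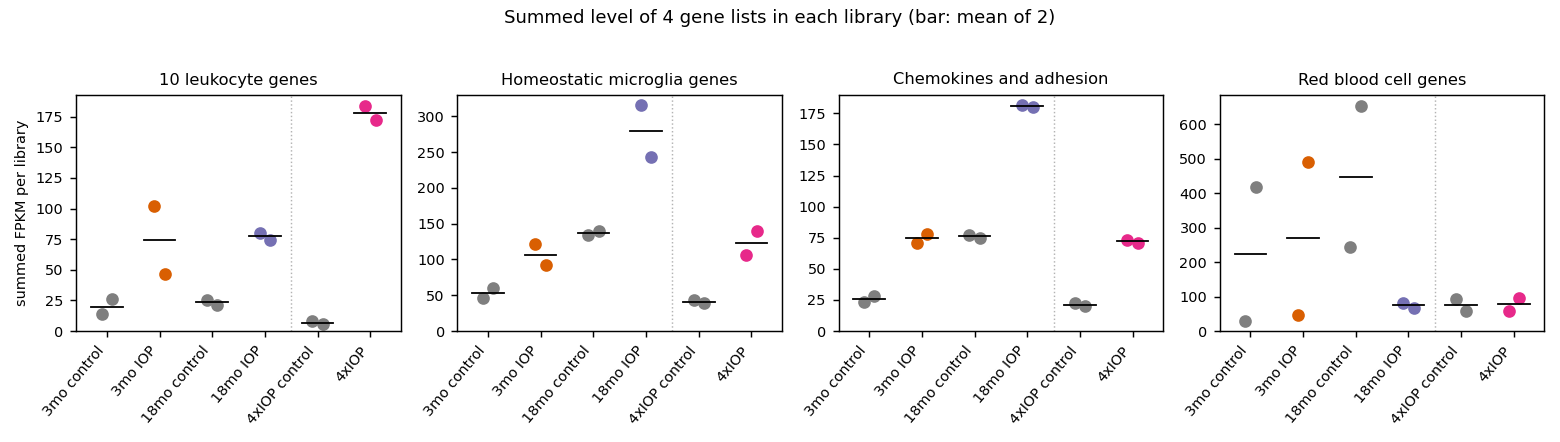
Summed FPKM of the 10 leukocyte genes, of homeostatic microglia genes, of chemokine and adhesion genes and of red blood cell genes in each library (points) with the mean of each group of 2 (bars). The 10 genes reach 184 and 173 FPKM in the 4xIOP libraries against 8.04 and 5.73 FPKM in their controls, while the red blood cell sums of these 4 libraries overlap.

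The effect of a single elevation was compared between the ages by the interaction term of the same fit. None of the 7 tested members was called, as was none of 13731 genes (0.0%). The estimates ran from -1.21 to 0.62 on the log2 scale. Cd52 had the only unadjusted p under 0.05 among them: its log2 fold change was 2.18 at 3 months and 0.97 at 18 months, a difference of -1.21 (SE 0.42, unadjusted p = 0.0193 and adjusted p = 1.00 by limma across all genes). Over all genes 218 (1.59%) had an unadjusted p under 0.05, a share smaller than the threshold itself, so the lack of a call says little about the members.

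Between 18mo control and 3mo control, 5 of the 7 tested members were not called, Laptm5 was called higher and Plac8 lower. Over all genes 11.6% were called in each direction (1595 higher and 1590 lower, which became 1056 and 1959 with median-of-ratios size factors), so the members' share was near the background. Plac8 passed the filter only through the 3-month groups, Ptprc only through the 18-month groups, and Laptm5 was under 0.5 FPKM in the 3mo controls, so their differences with age are a description. Laptm5 was at 0.340 and 0.313 FPKM at 3 months and 5.54 and 6.13 FPKM at 18 months (17.9-fold, log2 fold change 2.94, SE 0.36, adjusted p = 0.00462, limma), and it kept its call in all 21 alternatives. Plac8 was at 1.49 and 10.4 FPKM at 3 months and 0.229 and 0.153 FPKM at 18 months (log2 fold change -2.75, SE 0.69, adjusted p = 0.0156). The Plac8 call was lost without either 18mo control library (adjusted p = 0.0612 and 0.0750). Ptprc was at 0.094 and 0.094 against 0.461 and 0.664 FPKM, which is 5.98-fold in the means but 0.83 on the log2 scale with its added constant (SE 0.27, adjusted p = 0.0377), short of the fold threshold. On recovered reads with voom, where no constant of that size is added, the log2 fold change of Ptprc was 2.54 (adjusted p = 0.0122). Cd52 (2.17 and 3.57 against 3.43 and 4.11 FPKM), Lyz2 (5.48 and 5.12 against 10.7 and 4.13 FPKM) and Coro1a (1.73 and 3.49 against 0.845 and 1.73 FPKM) overlapped between the ages, and Skap2 (2.18 and 3.15 against 4.52 and 3.86 FPKM) was not called.

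Between the treated eyes of both ages, Laptm5 and Ptprc were called higher and Plac8 lower at 18 months among the 7 tested, against 10.2% of all genes called higher and 11.6% lower, and the same limit from the filter holds for Ptprc and Plac8. With median-of-ratios size factors the split was 1 higher and 1 lower, since Ptprc then missed the fold threshold (log2 fold change 0.99). Laptm5 differed by 2.13 (SE 0.36, adjusted p = 0.00642, limma), Ptprc by 1.07 (SE 0.27, adjusted p = 0.0183) and Plac8 by -2.13 (SE 0.69, adjusted p = 0.0388). The Laptm5 call was lost without 3mo IOP replicate 2 (adjusted p = 0.0550), and the Ptprc call without either 3mo IOP library (adjusted p = 0.0844 and 0.0874), with the length trend removed (log2 fold change 0.65, adjusted p = 0.0836) and with a pseudocount of 1 (0.75, short of the fold threshold). Ptprc fell below the filter, untested, with a mean of at least 2 FPKM and without 18mo IOP replicate 1. In the latter fit, which keeps 1 treated library at 18 months, Skap2 had a log2 fold change of 1.28, Coro1a of -1.44 and Cd52 of -1.23. With every library kept, Coro1a (-0.97) and Cd52 (-0.85) lay lower in both 18mo IOP than in both 3mo IOP libraries and Skap2 (0.73) higher. None of the latter 3 reached a fold change of 1, so none was called. The Plac8 call was lost in 12 alternatives, among them every setting that left out 1 library of the groups compared (adjusted p from 0.0790 to 0.201) and the replicate block (0.0502). Lyz2 was alike in the mean, 44.7 ± 37.7 FPKM at 3 months and 44.5 ± 2.06 FPKM at 18 months (SD, n = 2), with a spread at 3 months as wide as the level.

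Microglia genes, vessel genes and the weight of short transcripts also differed between the ages. Of 13 tested microglia genes, 6 were called higher in 18mo than in 3mo control eyes (Cx3cr1, Csf1r, Olfml3, Selplg, Sparc and Trem2), 5 of them among the 10 at or above 0.5 FPKM in both groups, and none lower, and of 18 monocyte and macrophage genes 7 were higher, 3 of them among the 7 at or above 0.5 FPKM in both groups, and S100a4 was lower (8.29 and 31.6 against 6.60 and 4.33 FPKM). Endothelial genes were called higher in 9 of 10 (6 of the 7 at or above 0.5 FPKM in both groups) and retinal pigment epithelium genes lower in 8 of 8 (3 of 3). Chemokine and adhesion genes were called higher in 8 of 18 (1 of 7) and pan-leukocyte genes in 4 of 17 (2 of 8). Of the 16 markers of retinal neurons and Muller glia, 3 were called higher and 4 lower. Between the treated eyes, 3 of 13 microglia genes and 11 of 18 chemokine and adhesion genes were called higher, and Ccl12 lower. The part of these shifts in the levels of Laptm5, Ptprc and Plac8 was not tested. Laptm5 and Ptprc have transcripts of 2406 and 5146 bases and Plac8 and Cd52 of 696 and 499 bases, and the libraries at 3 months carried more of their signal in short transcripts, as given above. Once the length trend was taken out of each library, Laptm5 kept a log2 fold change of 2.76 (adjusted p = 0.00178, limma) and Plac8 of -1.83 (adjusted p = 0.0173) between the control groups, Ptprc had 0.41 (adjusted p = 0.239), and Cd52 was called higher at 1.36 (adjusted p = 0.0064). Between the treated eyes Cd52 then turned from -0.85 to 0.22.

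A set of 5 genes followed the mean standardized profile of the 7 tested members most closely over the 8 single-elevation libraries, out of 13724 other genes. They were Ctla2b (Pearson r 0.988), Npc2 (0.987), Ppp1r1b (0.982), Smim1 (0.968) and Clec7a (0.966), given as a description, since the 8 libraries share their treatment groups. Npc2, a lysosomal cholesterol carrier, was at 7.43 and 10.1 FPKM in the 3mo controls, 18.6 and 13.6 FPKM in the 3mo IOP eyes, 10.1 and 9.52 FPKM in the 18mo controls and 17.5 and 14.1 FPKM in the 18mo IOP eyes. Clec7a, the beta-glucan receptor of myeloid cells, was at 0.214 and 0.811, 3.27 and 2.83, 1.22 and 1.45, and 5.92 and 3.37 FPKM in the same order. In the repeated experiment, which did not enter the choice, Clec7a was at 0.047 and 0.022 FPKM in the controls and 2.75 and 4.13 FPKM in the 4xIOP eyes. Npc2 was at 6.47 and 6.62 against 12.1 and 13.2 FPKM and Ctla2b at 0.240 and 0.141 against 0.955 and 1.41 FPKM. Ppp1r1b, a neuronal phosphatase inhibitor (2.15 and 2.33 against 2.81 and 1.98 FPKM), and Smim1 (2.29 and 2.14 against 2.25 and 2.63 FPKM) overlapped between the groups.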

How the data were processed

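RNA was extracted with TRIzol from the retinas of single eyes, and stranded polyadenylated libraries were sequenced on an Illumina instrument. The authors aligned reads to mm10 with STAR (2.7.8a) and used HOMER to count uniquely mapped tags in exons of 1 isoform per locus. They deposited the values as FPKM, scaled to transcript length and to the tags of each library, in 2 tables of FPKM columns alone, with no columns of comparisons. The study ran its own tests on counts. Here, limma (3.58.1, with a mean-variance trend) in R (4.3.3) was fitted to log2(FPKM + 0.5) of genes whose mean reached 0.5 FPKM, using 1 mean for each group and no covariate. All 8 single-elevation libraries shared 1 fit and the 4 repeated-elevation libraries another, and p-values were adjusted by the Benjamini-Hochberg method over all tested genes. With 2 libraries a group, each p-value rests on the spread within all groups of its fit, which limma draws toward that of all tested genes. It is therefore not a measure of the spread between the compared libraries alone. In the repeated fit a gene's own spread had 2 degrees of freedom and the part borrowed from all genes 10.6, against 4 and 4.12 in the single-elevation fit. Whole reads, recovered from the FPKM steps (100.0% of checked values in every library lay within 0.05 reads plus the rounding error of a whole number, over values above 0 and under 2000 reads whose rounding error was under 0.2 reads), served for counts of reads and for voom. The steps were tested on simulated data.

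The members and the lists of other cells were chosen with earlier results of these data known. Named genes were the 10 members, their near copies, the 3 genes of highest mean FPKM in each list, genes called where 5 or fewer of a list were called, and the 5 genes most like the members. Other genes named from longer lists of calls were named after their values were seen. Alternatives were the pseudocount, the filter, median-of-ratios size factors, no trend, a replicate block, the threshold, fits of the compared groups alone, removal of the transcript length trend, voom and each library left out. Protein sequences were not used, and a few genes chosen by these rules are not reported here.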

Additional observations from a re-analysis of the deposited data

How the results depend on the processing

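Of the values for single members under the alternatives, 684 kept their direction and their side of the threshold, 32 lost and 13 gained a call, and 7 reversed. In 4xIOP eyes the count of leukocyte genes called higher was 9, and it lay between 6 (mean of at least 2 FPKM, where fewer genes were tested) and 9, and between 8 and 9 with a library left out. At 3 months the count of 1 became 0 without the filter, with median-of-ratios size factors and with voom, with or without a filter, and ran from 0 to 2 with a library left out. At 18 months the count of 0 became 1 at most. For age in control eyes, 2 in place of 1 were called higher with the adjusted p alone, a pseudocount of 0.1, the length trend removed or voom with or without a filter, and the count called lower ran from 0 to 1 with a library left out. For age in IOP eyes, 1 in place of 2 was called higher with a pseudocount of 1, a mean of at least 2 FPKM or median-of-ratios size factors (0 to 2 with a library left out). The count called lower, 1, was 2 with the adjusted p alone and 0 with a pseudocount of 1, no filter, the length trend removed or voom with or without a filter (0 to 2 with a library left out). Reversed values were those of Plac8 at 18 months with the length trend removed (-0.082) or with a library left out (-0.044 to 0.37), Plac8 at 3 months without replicate 2 of the control or IOP group (-1.68 to 0.77 over the libraries left out), Cd52 with age in IOP eyes with the length trend removed (0.22), and Lyz2 with age without 18mo control replicate 1 (-0.32 to 0.95 over the libraries left out) or 3mo IOP replicate 2 (-0.68 to 1.28). The causes were not tested, except where fewer genes or libraries entered by construction.

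The replicate block on same-numbered libraries left the counts called higher as they were and took the count called lower with age in IOP eyes from 1 to 0. The labels do not say whether a number marks the eyes of 1 animal, and the data do not settle it. Deviations of same-numbered libraries from the group means correlated at -0.28 at 3 months, -0.53 at 18 months and -0.29 in the repeated experiment. The crossed pairing, added after seeing the data, gave the same counts as no block.

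Median-of-ratios size factors moved the median log2 fold change of all genes from 0.13 to -0.04 at 3 months, from 0.16 to 0.01 with age in control eyes and from 0.10 to -0.01 in 4xIOP eyes. Over all genes, with every library kept and then with 1 left out, counts called higher ran from 3 to 89 and from 0 to 253 at 3 months, from 0 to 21 and from 0 to 134 at 18 months, from 1008 to 3667 and from 607 to 2629 with age in control eyes, from 1024 to 3154 and from 379 to 1424 with age in IOP eyes, and from 405 to 1307 and from 558 to 715 in 4xIOP eyes. Where a library is left out, the lone library of its group is assumed to vary like the other groups. Counts of reads under about 3 in a library limit Ccr2, Ly6c2 and Cd3e.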
